A study of Mus musculus with 27 samples.

Results

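The genes described here are 37 genes of mitochondrial and peroxisomal fatty acid oxidation, a list matched by symbol to the 41388 gene identifiers counted in mouse liver RNA. By the known location of their proteins, 20 act in mitochondria, 14 in peroxisomes, and 3 (Eci2, Crat and Acot1) act in both or elsewhere. No rule on measured values defined the list, but it was chosen with earlier results of these data known. All 37 passed the low-count filter. Symbols came from matching the Ensembl identifiers of the count files to the GENCODE annotation of the mouse genome build GRCm38.

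Liver RNA was sequenced from 27 ovariectomized female C57BL/6 mice, labelled as 120 days of age, in 9 groups of 3. Mice were dosed by gavage at intervals of 4 days over 92 days, although the same label also calls the dosing daily. In 8 groups the dose was TCDD, the dioxin that binds and activates the aryl hydrocarbon receptor (AhR), at 30, 10, 3, 1, 0.3, 0.1, 0.03 and 0.01 µg/kg, and the remaining group received sesame oil vehicle. The 3 livers of a group are described as biological replicates. Every mouse, vehicle included, lacked ovaries, and whole liver was extracted, so values average over all liver cell types. By its title the series asks how metabolism and gene expression change with dose as TCDD brings on liver fibrosis, so each dose was set against vehicle.

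Fatty acids are activated to acyl-CoA and enter mitochondria through the carnitine shuttle, where repeated cycles of dehydrogenation, hydration, a second dehydrogenation and thiolysis shorten the chain and pass electrons to the respiratory chain. Peroxisomes run a parallel spiral on very long, branched and dicarboxylic chains and hand the shortened products on as carnitine esters or free acids. In liver the resulting acetyl-CoA feeds the tricarboxylic acid cycle and, in fasting, ketone bodies. Many genes of both pathways are classic targets of the nuclear receptor PPAR-alpha.

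Library totals were 11050391 to 30873586 counts in 26 livers and 434011 counts in the second 0.3 µg/kg liver, which was kept and is named wherever a result rests on it. Index sequences came in separate sets for vehicle to 0.1 µg/kg and for 0.3 to 10 µg/kg, while 30 µg/kg reused the 3 vehicle indices. For 0.3 to 10 µg/kg against vehicle, an effect of dose and an effect of index set cannot be told apart. The same holds for 30 against 10 µg/kg. For 30 µg/kg against vehicle the indices are the same, and libraries that share an index cannot be separated within 1 pool. An effect of pool or lane in that contrast was not tested. Cyp1a1, the standard readout of AhR, averaged 3.12 ± 0.605 CPM (SD, n = 3) in vehicle and 7201 ± 652 CPM at 30 µg/kg, and its group means followed the order of the labelled doses. Levels are library-scaled counts (CPM, with TMM factors), as mean ± SD of 3 livers. Differences are fitted log2 fold changes against vehicle with their standard error (SE) unless another contrast is named. A gene is called at a Benjamini-Hochberg adjusted p below 0.05 over the 15121 genes tested by edgeR's quasi-likelihood test. A gene that was not called is not thereby shown to be unchanged.

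A minority of the oxidation genes fell at 1, 3 and 10 µg/kg, and at the top dose all genes of activation, of the carnitine shuttle and of carnitine ester formation were lower. At 30 µg/kg 16 of the 37 genes were lower and 1, Pex11a, was higher, while 19.4% of all genes tested were lower and 18.0% higher. At 1 µg/kg 10 were lower (8.21% of all genes), at 3 µg/kg 7 (4.89%) and at 10 µg/kg 9 (11.2%), and none was higher at these doses, where 11.1%, 5.17% and 11.3% of all genes were. At 0.01, 0.03 and 0.1 µg/kg none was called, against 0.00%, 0.0397% and 0.192% of all genes in either direction. DESeq2 also called none there, and 0, 0 and 1 of the 37 had an unadjusted edgeR p below 0.05. At 0.3 µg/kg Acaa1a alone was called, as higher (0.622% of all genes were higher). The median of the 37 log2 fold changes at 30 µg/kg was -0.43, beside -0.01 over all genes tested, and 30 of the 37 lay below 0. Livers did not overlap with vehicle for 24 of the 37 genes at 30 µg/kg (49.8% of all genes), and for 19, 20 and 19 at 1, 3 and 10 µg/kg (35.5%, 33.7% and 43.9%).

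**Figure D1:**
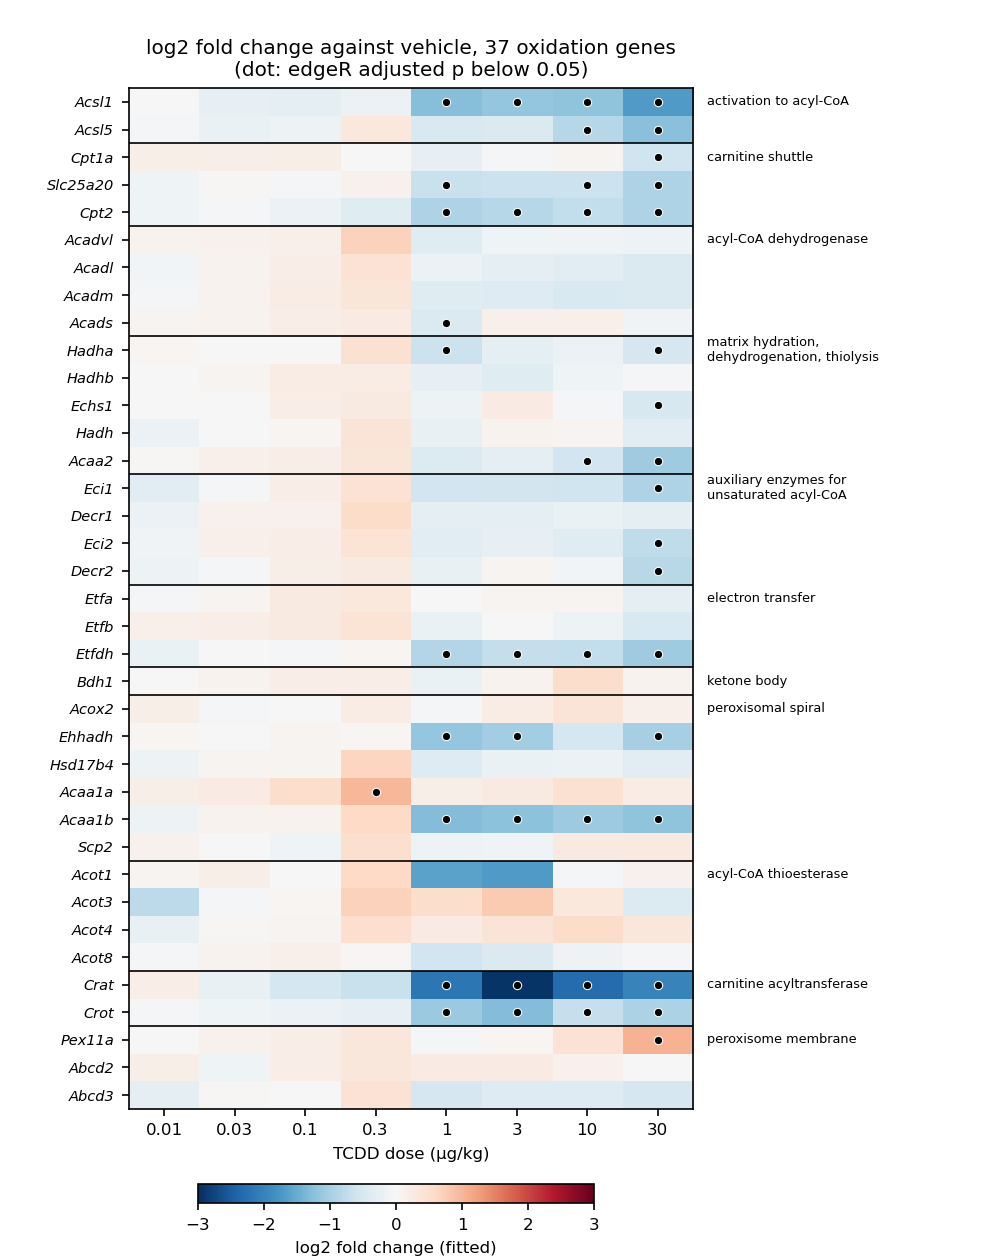
Fitted log2 fold change against vehicle for each of the 37 oxidation genes (rows, ordered by role) at each TCDD dose (columns, µg/kg). Blue is lower and red is higher than vehicle, and a dot marks an edgeR adjusted p below 0.05. Up to 0.3 µg/kg there is 1 dot, Acaa1a, and the lowest value is that of Crat at 3 µg/kg, -2.95.

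These counts fell when single livers were left out. Without the first 1 µg/kg liver the count at that dose was 5, and without the third 30 µg/kg liver the count at 30 µg/kg was 11. At 3 µg/kg the count was 4 or 5 whichever vehicle or 3 µg/kg liver was left out, and 4 without the second 3 µg/kg liver. At 10 µg/kg it was 5 without the second vehicle liver, 4 without the third vehicle liver, and 5 without the first or the second 10 µg/kg liver. Under RLE, upper-quartile or DESeq2 scaling the median of all genes at 30 µg/kg moved by 0.11 on the log2 scale, and calls over all genes went from 2720 higher and 2940 lower to 3345 and 2299 with RLE, 3351 and 2293 with upper-quartile factors and 3170 and 2259 with DESeq2. Relative to the median of all genes, the median of the 37 was -0.42 in the main fit and under each of those 3 scalings.

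Hepatocyte markers fell at the same dose. At 30 µg/kg 9 of 9 measured hepatocyte markers were lower, and their summed level was 60890 to 102900 CPM, beside 127800 to 238700 CPM in vehicle livers. Neutrophil markers were higher in 7 of 7 tested (summed 49.2 to 116.5 CPM against 1.20 to 2.61 CPM, with Ly6g at 0 in vehicle), bile duct markers in 5 of 6, B cell markers in 4 of 5 and stellate cell markers in 3 of 7 (summed 336 to 671.5 CPM against 120.5 to 179.8 CPM). Macrophage and Kupffer cell markers summed to 297.3 to 398.3 CPM at 30 µg/kg, beside 248.8 to 363.5 CPM in vehicle. Sinusoidal endothelium markers summed to 144.9 to 247 CPM, beside 176.2 to 228.7 CPM, and both lists overlapped with vehicle. Among all genes tested 18.0% were higher and 19.4% lower. The part of these cell types in the fall of the oxidation genes was not tested. Fewer hepatocytes and less RNA per hepatocyte cannot be told apart in whole liver. At 1, 3 and 10 µg/kg 1, 1 and 3 of the 9 hepatocyte markers were lower. Adipocyte markers stayed at or below a summed 0.638 CPM in vehicle and 30 µg/kg livers. Muscle markers summed to 92.1 CPM in the third vehicle liver, 0.149 and 0.209 CPM in the others and 10.3 to 19.8 CPM at 30 µg/kg.

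Activation and the carnitine shuttle fell as a group: all 5 genes were lower at 30 µg/kg. Acsl1 encodes the main long-chain acyl-CoA synthetase of liver, which makes the acyl-CoA that every later step uses. A stretch around its start and that of Cpt2 are shown, 2 of the 6 genes called lower from 1 µg/kg on. Each spans 250 bases before to 50 after the annotated start (RefSeq, GRCm38.p6), read 5′ to 3′ on the gene's strand at chr8:46470787-46471086 (plus) and chr4:107923540-107923839 (minus). Capitals mark GCGTG, the core of the dioxin response element bound by AhR, on either strand.
Acsl1: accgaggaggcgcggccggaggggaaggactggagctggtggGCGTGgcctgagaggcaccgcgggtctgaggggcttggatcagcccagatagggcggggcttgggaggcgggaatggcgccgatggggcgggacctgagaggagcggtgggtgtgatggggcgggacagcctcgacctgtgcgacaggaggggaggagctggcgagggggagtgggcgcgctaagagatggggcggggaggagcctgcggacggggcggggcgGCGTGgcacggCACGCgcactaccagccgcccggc
Cpt2: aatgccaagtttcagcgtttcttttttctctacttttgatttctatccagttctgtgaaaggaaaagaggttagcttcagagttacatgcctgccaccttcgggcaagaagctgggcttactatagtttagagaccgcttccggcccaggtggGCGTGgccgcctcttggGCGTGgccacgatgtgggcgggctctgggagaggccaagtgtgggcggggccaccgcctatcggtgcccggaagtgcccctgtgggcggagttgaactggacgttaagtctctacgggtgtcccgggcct
The Acsl1 stretch holds 3 such cores, at positions 43, 266 and 277 counted from its 5′ end, and the Cpt2 stretch 2, at 154 and 171. RefSeq lists a second Acsl1 start, with the stretch chr8:46490716-46491015, which holds 0 cores. Among the other genes called lower from 1 µg/kg on, the Etfdh stretch holds 1 core and those of Crot and Acaa1b hold 0. Crat has no entry. A core is a match of letters, not a site shown to be bound, and 32.4% of all 32851 RefSeq promoters of this length hold at least 1.

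Acsl1 measured 1198, 1451 and 1455 CPM in the vehicle livers and 372, 476 and 414 CPM at 30 µg/kg. Every treated liver lay far below every vehicle liver. Acsl1 was already 561 ± 131 CPM at 1 µg/kg, stayed at 609 ± 50.4 and 592 ± 148 CPM at 3 and 10 µg/kg, and reached 421 ± 51.9 CPM at 30 µg/kg. The log2 fold change was -1.70 (SE 0.24, edgeR adjusted p = 3.66e-06), a 3.25-fold lower level. Acsl5, a related synthetase of the outer mitochondrial membrane and endoplasmic reticulum, read 567, 523 and 646 CPM in vehicle and 204, 257 and 269 CPM at 30 µg/kg. It was first called at 10 µg/kg (log2 fold change -0.85, SE 0.25) and stood at -1.25 at 30 µg/kg (edgeR adjusted p = 0.000302). Its livers did not overlap with vehicle at 1 and 3 µg/kg either, although -0.46 and -0.44 were not called there.

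Cpt1a encodes the carnitine palmitoyltransferase of the outer membrane, the regulated entry step that malonyl-CoA inhibits. Its fall came later than that of its partners: group means were 402 to 541 CPM from vehicle to 10 µg/kg with no call, and 318 ± 22.9 CPM at 30 µg/kg. The vehicle livers held 486, 508 and 441 CPM and the 30 µg/kg livers 339, 323 and 294 CPM, with no overlap. The fall of 0.59 on the log2 scale (SE 0.18, edgeR adjusted p = 0.0141) was called, and without the third 30 µg/kg liver its adjusted p was 0.0698. The direct step from 10 to 30 µg/kg was also called (log2 fold change -0.68, edgeR adjusted p = 0.0431). That contrast crosses the index sets, and its call was lost in 5 alternative fits (edgeR adjusted p up to 0.249).

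Cpt2, the inner-membrane transferase that releases acyl-CoA into the matrix, fell earlier. It read 241, 202 and 198 CPM in vehicle and 112, 110 and 116 CPM at 30 µg/kg. Group means of 112, 118, 127 and 113 CPM at 1, 3, 10 and 30 µg/kg lay within the spread of the livers. Cpt2 was called at each of these doses, with log2 fold changes of -0.93, -0.86, -0.74 and -0.92 (edgeR adjusted p = 0.000616 at 30 µg/kg). Slc25a20, the carnitine-acylcarnitine translocase between the transferases, went from 182, 200.5 and 208 CPM to 98.5, 113 and 99.6 CPM, with a log2 fold change of -0.93 (SE 0.21, edgeR adjusted p = 0.00132). It was also called at 1 and 10 µg/kg. The call at 1 µg/kg was lost in 4 alternative fits (edgeR adjusted p up to 0.154). The call at 10 µg/kg was lost in 8 (edgeR adjusted p up to 0.118), among them each that left out a vehicle or 10 µg/kg liver. At 3 µg/kg its log2 fold change of -0.65 had an edgeR adjusted p of 0.0521.

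**Figure D2:**
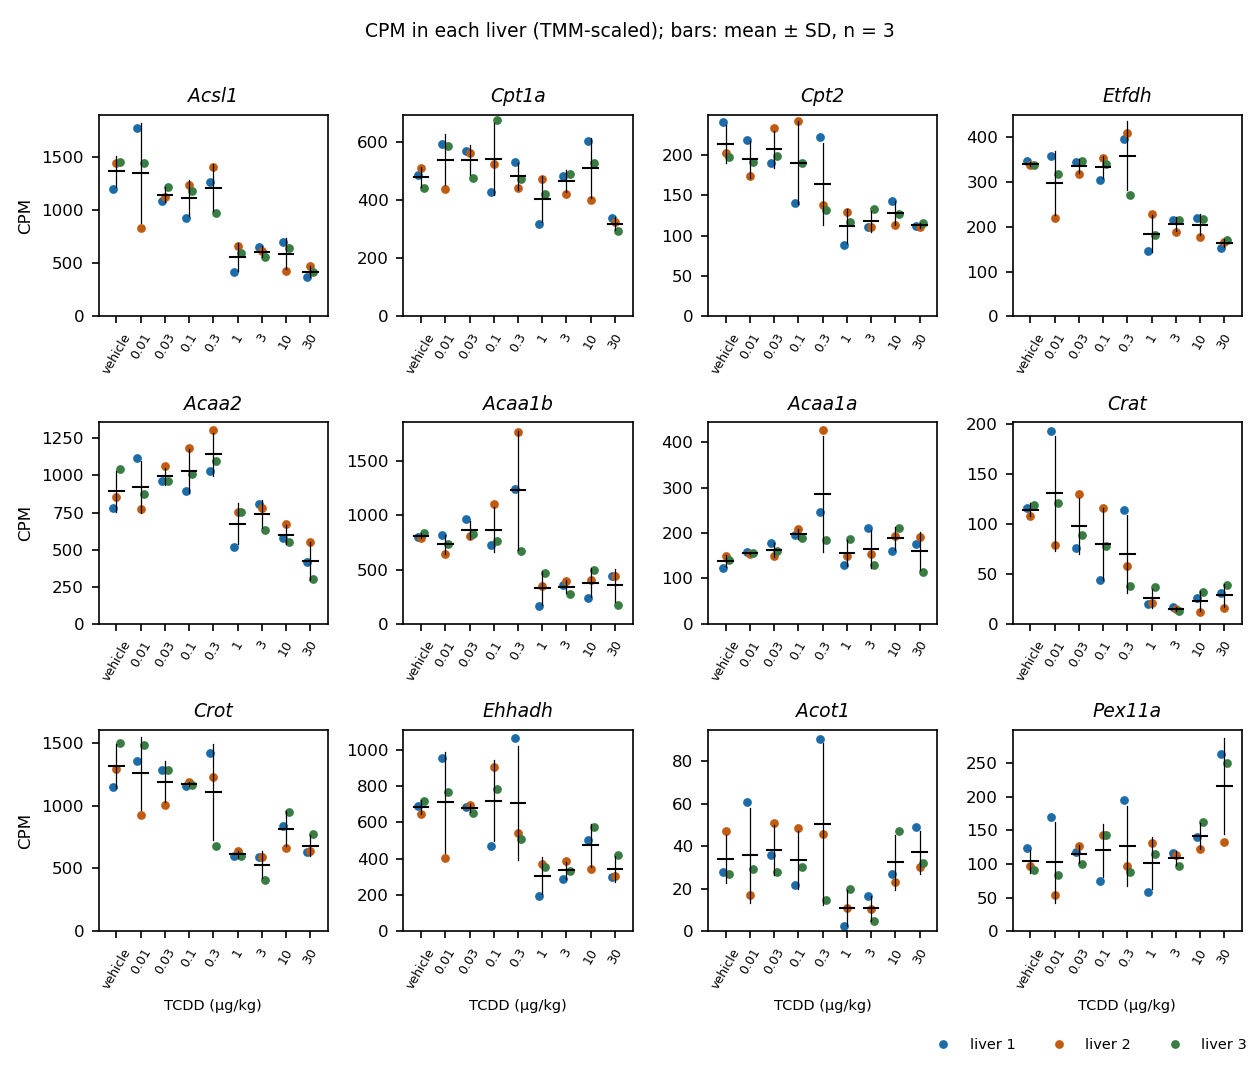
TMM-scaled CPM of 12 oxidation genes in each liver (points, coloured by replicate number) by group, from vehicle to 30 µg/kg, with each axis starting at 0. Horizontal bars are means and vertical bars SD of 3 livers. Acsl1, Cpt2, Etfdh, Crat and Crot step down between 0.3 and 1 µg/kg, Cpt1a does so between 10 and 30 µg/kg, and Pex11a rises in 2 of the 3 livers at 30 µg/kg.

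For the first dehydrogenation in the matrix there was no call at the top dose. None of the 4 acyl-CoA dehydrogenases, which divide the substrates by chain length (Acadvl very long, Acadl long, Acadm medium, Acads short), was called at 30 µg/kg, where 1 had an unadjusted p below 0.05. Acadm, the medium-chain enzyme, held 261, 263 and 287 CPM in vehicle and 238, 151 and 214 CPM at 30 µg/kg. These livers did not overlap, but the log2 fold change of -0.43 (SE 0.21) had an edgeR adjusted p of 0.113. Acadl was at -0.43 (edgeR adjusted p = 0.0656), Acadvl at -0.14 and Acads at -0.10. Acads was called at 1 µg/kg alone, with 121, 158 and 151 CPM beside 204, 177 and 203 CPM in vehicle, and that call was lost in 10 of the alternative fits. Acadm and Acadl were called lower in the trend over dose rank, and Acadm, Acadl and Acadvl between 0.3 and 10 µg/kg, where Acadl and Acadvl lost the call without the shallow liver. Acadl lost its trend call in 8 alternative fits (edgeR adjusted p up to 0.11). Between 0.3 and 10 µg/kg Acadm lost its call in 3 (edgeR adjusted p up to 0.21).

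Further along the matrix spiral 3 of 5 genes were lower at 30 µg/kg. Hadha encodes the alpha subunit of the trifunctional protein, which hydrates and oxidizes long-chain intermediates. It read 421, 451 and 432 CPM in vehicle and 308.5, 314 and 296 CPM at 30 µg/kg, which gave a log2 fold change of -0.51 (SE 0.19, edgeR adjusted p = 0.0379). The livers did not overlap, yet the call was lost in 11 alternative fits, with adjusted p up to 0.136. Echs1, the short-chain hydratase, was similar at -0.49 (edgeR adjusted p = 0.0291) and lost its call in 9 fits. Acaa2, the mitochondrial thiolase that makes the final cut, fell more: it held 778, 856.5 and 1043 CPM in vehicle and 413.5, 553 and 303.5 CPM at 30 µg/kg (log2 fold change -1.08, SE 0.21, edgeR adjusted p = 0.000196). Its group means passed through 674, 742 and 599 CPM at 1, 3 and 10 µg/kg.

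Hadh, the short-chain hydroxyacyl-CoA dehydrogenase, was at -0.34 (edgeR adjusted p = 0.119) and not called. Hadhb, the beta subunit of the trifunctional protein, was at -0.03, but its low level of 26.2 ± 2.69 CPM in vehicle needs care. Of all 50-base windows of its longest transcript, 62.4% also occur in the genes Gm13910 and Gm9108, and how reads with several matches were counted is not given in the sources used here. The Hadha and Hadhb genes lie head to head on chromosome 5, with starts at 30155162 (minus strand) and 30155248 (plus strand). Their vehicle levels per length were 49.8 and 3.98 CPM per kilobase of exon, and the part of the shared sequence in that gap was not tested.

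The auxiliary enzymes that rearrange double bonds of unsaturated chains were lower in 3 of 4 cases at 30 µg/kg. Eci1, the mitochondrial enoyl-CoA isomerase, read 118, 132 and 129 CPM in vehicle and 78.6, 77.7 and 42.6 CPM at 30 µg/kg (log2 fold change -0.93, SE 0.27, edgeR adjusted p = 0.00915). The third treated liver was the lowest, and without it Eci1 was at -0.66 with an edgeR adjusted p of 0.0801. Eci2, its counterpart found in peroxisomes and mitochondria, went from 228, 230.5 and 228 CPM to 124, 132 and 150.3 CPM (log2 fold change -0.75, edgeR adjusted p = 0.0184, and 0.0886 without the first 30 µg/kg liver). Decr2, the peroxisomal dienoyl-CoA reductase, held 316, 277 and 285 CPM in vehicle and 153, 202.5 and 138 CPM at 30 µg/kg. As with Cpt1a, its fall came at the top dose: the log2 fold change was -0.08 at 10 µg/kg and -0.83 at 30 µg/kg (SE 0.18, edgeR adjusted p = 0.000802). The step between these doses, which crosses the index sets, was called at -0.76 (edgeR adjusted p = 0.0229). In 4 alternative fits that call was lost (edgeR adjusted p up to 0.173). Decr1, the mitochondrial reductase, was at -0.29 and not called.

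Electrons from all acyl-CoA dehydrogenases pass through the flavoprotein of Etfa and Etfb to the membrane oxidoreductase Etfdh. Etfdh held 346, 338 and 338.5 CPM in vehicle and 153, 166 and 171 CPM at 30 µg/kg, with no overlap. It dropped from 358 ± 76.6 CPM at 0.3 µg/kg to 185 ± 41.1 CPM at 1 µg/kg and was called at each dose from 1 µg/kg on, with -1.06 at 30 µg/kg (SE 0.18, edgeR adjusted p = 5.23e-05). Etfa was at -0.29 and Etfb at -0.45, neither called. Etfb shares 58.2% of its exonic bases with the overlapping gene Gm45233 on the same strand, so its level is uncertain.

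Bdh1, the mitochondrial enzyme that interconverts the ketone bodies acetoacetate and hydroxybutyrate, was not called at any dose. It held 367, 340 and 404 CPM in vehicle and 457, 411 and 322.5 CPM at 30 µg/kg, which overlap. At 10 µg/kg its mean of 534 ± 95.2 CPM was the highest of the 9 groups, and the log2 fold change of 0.53 had an edgeR adjusted p of 0.0544. Of 9 other tested genes of ketone metabolism, 5 were lower at 30 µg/kg and 1 was higher (19.4% and 18.0% of all genes). Slc16a1, a monocarboxylate transporter that carries ketone bodies, fell from 157 ± 27.7 CPM in vehicle to 66.0 ± 13.4 CPM and was called from 1 µg/kg on. Oxct1, the enzyme of ketone use that liver normally keeps low, rose from 3.76 ± 0.804 to 9.47 ± 1.66 CPM (log2 fold change 1.33, edgeR adjusted p = 9.92e-05).

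The peroxisomal spiral split. Ehhadh, the bifunctional enzyme that handles dicarboxylic and straight chains, fell, while Hsd17b4, the bifunctional enzyme also used for branched chains and bile acid precursors, was at -0.34 and not called. Ehhadh read 689, 645 and 717 CPM in vehicle and 301, 301 and 422 CPM at 30 µg/kg, and its groups did not overlap (log2 fold change -1.0, SE 0.31, edgeR adjusted p = 0.0128). It was at -1.16 and -1.03 at 1 and 3 µg/kg and at -0.53, not called, at 10 µg/kg. The call at 3 µg/kg was lost in 7 alternative fits, among them each that left out a vehicle or 3 µg/kg liver (edgeR adjusted p up to 0.132). Without the first 30 µg/kg liver its adjusted p was 0.0680. Acox2, the branched-chain acyl-CoA oxidase, was at 0.16 and Scp2, which carries the branched-chain thiolase, at 0.27, neither called. Scp2 shares 41.4% of its windows with Gm47162 and Scp2-ps2.

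The thiolase pair of peroxisomes diverged: Acaa1b was lower from 1 µg/kg on and Acaa1a was not. Acaa1a and Acaa1b lie on chromosome 9 on opposite strands, and their longest transcripts are 96% identical over 1450 aligned bases. Their start regions are shown so that the pair can be compared outside the transcripts (RefSeq, GRCm38.p6, chr9:119341044-119341343 plus and chr9:119157044-119157343 minus). Neither holds GCGTG.
Acaa1a: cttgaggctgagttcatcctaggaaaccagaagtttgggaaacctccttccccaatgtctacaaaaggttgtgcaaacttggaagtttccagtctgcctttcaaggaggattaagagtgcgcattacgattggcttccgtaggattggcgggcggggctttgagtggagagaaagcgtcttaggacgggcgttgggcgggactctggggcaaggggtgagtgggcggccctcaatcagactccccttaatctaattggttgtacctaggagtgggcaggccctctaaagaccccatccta
Acaa1b: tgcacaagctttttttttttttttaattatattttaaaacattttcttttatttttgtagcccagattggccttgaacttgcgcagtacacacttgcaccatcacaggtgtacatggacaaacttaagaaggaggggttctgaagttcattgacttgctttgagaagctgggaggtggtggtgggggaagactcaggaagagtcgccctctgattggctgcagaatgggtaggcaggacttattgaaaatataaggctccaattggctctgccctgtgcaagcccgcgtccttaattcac
Acaa1b, the more abundant copy, read 801, 793 and 838.5 CPM in vehicle and 444, 440 and 178 CPM at 30 µg/kg (log2 fold change -1.20, SE 0.36, edgeR adjusted p = 0.0107). Leaving out the third 30 µg/kg liver, the lowest, raised that p to 0.0789. Its groups did not overlap with vehicle at 1, 3, 10 or 30 µg/kg, with means of 328.5, 343, 380.5 and 354 CPM. Acaa1a held 123, 148.5 and 141 CPM in vehicle and 176, 192 and 113 CPM at 30 µg/kg, which overlap. It was above every vehicle liver at each dose from 0.01 to 0.3 µg/kg, with means of 156, 163, 198 and 286 CPM, and was called at 0.3 µg/kg (log2 fold change 1.0, edgeR adjusted p = 0.0284). That call rested on the shallow liver: the 3 livers read 245.5, 428 and 184 CPM, and without the second, which had 149 counts, the log2 fold change was 0.63 with an edgeR adjusted p of 0.211. Acaa1a shares 35.1% of its 50-base windows with Acaa1b and Myd88, and Acaa1b 46.2% with Acaa1a and Dlec1, so the division of reads between the pair is uncertain.

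Acyl-CoA thioesterases, which free the acid from CoA, showed no edgeR call in any of the 4 genes at any dose, with 2 at an unadjusted p below 0.05 at 1 µg/kg, 1 at 3 µg/kg and 0 at 30 µg/kg. Acot1, the cytosolic enzyme, had the largest swing of the 4: it read 27.9, 47.0 and 27.1 CPM in vehicle. At 1 µg/kg the livers held 2.68, 10.8 and 19.7 CPM, and at 3 µg/kg they held 16.8, 10.3 and 5.01 CPM. Both groups lay wholly below vehicle, but the livers spread so widely that -1.61 and -1.70 had edgeR adjusted p of 0.0945 and 0.129. At 10 and 30 µg/kg it was back at 32.5 ± 12.9 and 37.1 ± 10.3 CPM. The peroxisomal Acot3, Acot4 and Acot8 lay at -0.40, 0.34 and -0.05 at 30 µg/kg. Acot1, Acot3 and Acot4 sit in a cluster on chromosome 12 and share 33.6%, 21.7% and 14.4% of their windows with other genes.

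The carnitine acyltransferases that export shortened chains both fell, and Crat, carnitine acetyltransferase, had the largest change of all 37 genes. It read 116, 107 and 119 CPM in vehicle. The livers given 3 µg/kg held 16.8, 14.7 and 12.9 CPM and those given 30 µg/kg 31.2, 15.7 and 38.4 CPM. Group means descended already below the called doses, from 131 ± 57.4 CPM at 0.01 to 97.9 ± 28.1, 79.4 ± 36.1 and 69.7 ± 39.0 CPM at 0.03, 0.1 and 0.3 µg/kg, but these groups overlapped with vehicle. The log2 fold change was -2.95 at 3 µg/kg (SE 0.48, edgeR adjusted p = 0.000204) and -2.01 at 30 µg/kg (SE 0.45, edgeR adjusted p = 0.00152). Crot, the peroxisomal carnitine octanoyltransferase, held 1148, 1293 and 1495 CPM in vehicle. Its livers given 3 µg/kg read 589, 592 and 408 CPM, and those given 30 µg/kg read 633, 638 and 775 CPM. It too was lowest at 3 µg/kg (log2 fold change -1.31), with -0.94 at 30 µg/kg (SE 0.22, edgeR adjusted p = 0.00161).

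At the peroxisome membrane Pex11a was the exception to the falls. It encodes a membrane-shaping protein of peroxisome proliferation, and its start region is shown as that of the single gene called higher at 30 µg/kg (RefSeq, GRCm38.p6, chr7:79743082-79743381, minus strand). It holds no GCGTG.
Pex11a: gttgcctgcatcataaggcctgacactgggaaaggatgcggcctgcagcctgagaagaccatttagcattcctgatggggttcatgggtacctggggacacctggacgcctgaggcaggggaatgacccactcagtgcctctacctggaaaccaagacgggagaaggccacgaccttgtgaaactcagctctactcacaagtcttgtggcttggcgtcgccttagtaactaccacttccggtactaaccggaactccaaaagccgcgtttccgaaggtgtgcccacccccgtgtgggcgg
Pex11a read 124, 96.8 and 91.6 CPM in vehicle and 263, 133 and 251 CPM at 30 µg/kg. The second treated liver stood just above the highest vehicle liver. The log2 fold change was 1.05 (SE 0.37, edgeR adjusted p = 0.0296), and 5 alternative fits lost the call, with adjusted p up to 0.0996. The transporters of fatty acyl-CoA into peroxisomes were not called at 30 µg/kg: Abcd2 was at -0.01 and Abcd3 at -0.50 (edgeR adjusted p = 0.0956).

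Set side by side, mitochondrial genes were lower than peroxisomal ones in each 30 µg/kg liver. At that dose 10 of 20 mitochondrial genes were lower and none higher, with a median log2 fold change of -0.47. Of 14 peroxisomal genes 4 were lower and 1 higher, with a median of -0.20. Among all genes tested 19.4% were lower and 18.0% higher. In the single livers at 30 µg/kg the median log2 ratio to the vehicle mean was -0.45, -0.49 and -0.62 for mitochondrial and -0.13, -0.15 and -0.35 for peroxisomal genes. Mitochondrial minus peroxisomal was -0.32, -0.34 and -0.27 there, and 0.09, -0.09 and 0.02 in the vehicle livers. The same difference was negative in each of the 9 livers at 3, 10 and 30 µg/kg, and at 1 µg/kg it was 0.18, -0.09 and -0.01. It was also negative at 0.3 µg/kg, at -0.15, -0.02 and -0.07, and ran from -0.01 to 0.18 at 0.01 to 0.1 µg/kg. Counting the 3 genes of both or other places as peroxisomal moved the peroxisomal median at 30 µg/kg to -0.34. The difference between organelles was not tested, because the genes were grouped with results of these data known. Genes within each organelle spread more widely than the organelles differed: mitochondrial log2 fold changes ran from -1.70 to 0.10 and peroxisomal ones from -1.20 to 1.05.

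**Figure D3:**
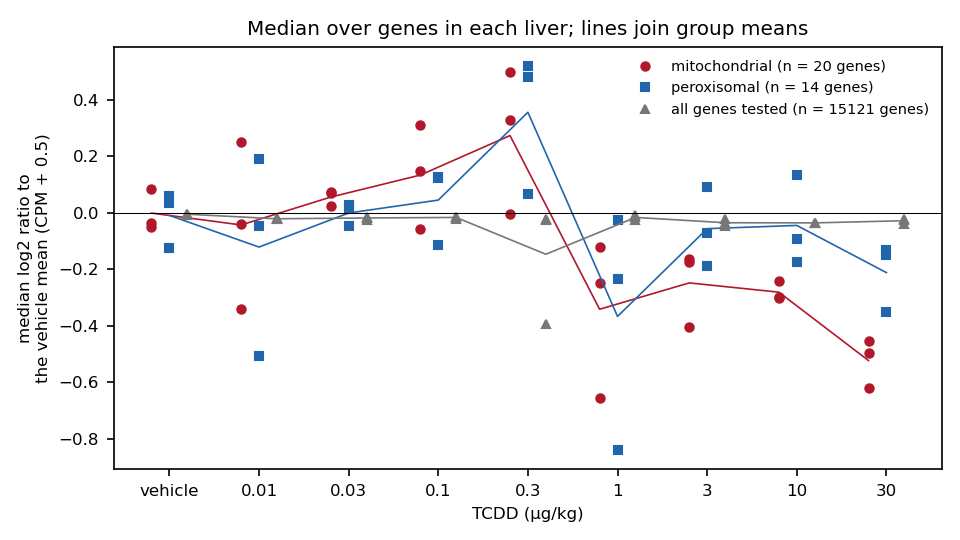
Median log2 ratio to the vehicle mean (CPM + 0.5) over the mitochondrial genes (red circles), peroxisomal genes (blue squares) and all genes tested (grey triangles) in each liver, by TCDD dose in µg/kg. Lines join the group means. Mitochondrial medians at 30 µg/kg lie at -0.45 or below and peroxisomal ones at -0.13 to -0.35, and the lone grey point at -0.39 is the shallow 0.3 µg/kg liver.

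Livers of a group often moved as a whole. At 1 µg/kg the first liver was the lowest of the 3 for 35 of the 37 genes, while it was lowest for 34.3% of all genes tested. Its median log2 ratio over the 37 genes was -0.74, beside -0.11 and -0.26 in the other 1 µg/kg livers. Its summed neutrophil markers stood at 1094 CPM, against 5.0 and 183 CPM in its group mates, and its summed hepatocyte markers at 90000 CPM against 145600 and 123100 CPM. The part of these cells in the values of that liver was not tested. Without it Acaa1b, Ehhadh, Hadha, Acads and Slc25a20 lost their calls at 1 µg/kg, with Acaa1b at -0.98 (edgeR adjusted p = 0.0837). At 0.01 µg/kg, where nothing was called, the second liver was lowest and the first highest for 33 of the 37 genes each, with medians of -0.50 and 0.24. Neutrophil markers did not exceed 9.28 CPM in that group. At 0.3 µg/kg 33 of the 37 genes lay above 0, with a median of 0.34 beside -0.02 over all genes. Without the shallow liver the median was 0.22 and 31 genes lay above 0.

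By dose, 6 genes were lower at every dose from 1 µg/kg up: Acsl1, Cpt2, Etfdh, Acaa1b, Crat and Crot. For 3 more (Acsl5, Slc25a20 and Acaa2) calls in the same direction ran from 10 µg/kg up, for 8 genes an unbroken run of calls began at 30 µg/kg, and 20 were not called at 30 µg/kg. These runs were not equally firm. Acaa1b lost its call in 7 alternative fits at 3 µg/kg, among them each that left out a vehicle or 3 µg/kg liver (edgeR adjusted p up to 0.128), and in 7 at 10 µg/kg (up to 0.133). At 10 µg/kg Crot lost its call in 6 fits, RLE and upper-quartile scaling included, and Acaa2 in 13, DESeq2 included (edgeR adjusted p up to 0.143 and 0.226). A trend over the rank of the dose was called for 19 of the 37, 17 lower and 2 higher (Pex11a and Acot4), beside 23.3% of all genes in each direction. The steepest slopes were those of Crat at -0.36 and Acsl1 at -0.22 log2 units per dose rank. The slope of Acot4 was 0.08 and lost its call in 10 alternative fits. Between 10 and 30 µg/kg 2 of the 37 were lower (1.83% of all genes), Cpt1a and Decr2. None was left without the first 10 µg/kg liver or without the first or the third 30 µg/kg liver, 1 was without the third 10 µg/kg liver, and 4 were called without the second 30 µg/kg liver. Within the second index set, 16 of the 37 were lower at 10 than at 0.3 µg/kg (6.37% of all genes), and without the shallow liver 7 were. It was 9 without the first 0.3 or the first 10 µg/kg liver and 7 without the second 10 µg/kg liver.

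Of 20 regulators of these genes, 7 were lower and 2, Pparg and Sirt1, higher at 30 µg/kg, beside 19.4% of all genes lower and 18.0% higher. Ppara, which encodes PPAR-alpha itself, held 96.5, 110 and 118 CPM in vehicle and 43.2, 58.6 and 41.1 CPM at 30 µg/kg, giving a log2 fold change of -1.18 (SE 0.27, edgeR adjusted p = 0.00138). From 1 to 10 µg/kg, where Acsl1, Cpt2 and Crat were already low, Ppara was at -0.02, 0.15 and -0.26 and not called. The part of Ppara in the fall of the oxidation genes was not tested, and receptor activity was not measured. Rxra, the partner of PPAR-alpha, was at -0.03 and the coactivator Ppargc1a at -0.46 at 30 µg/kg, neither called. Ppard, the related receptor PPAR-delta, was lower at each dose from 0.1 µg/kg on, with -1.51 there and -0.83 at 30 µg/kg (edgeR adjusted p = 0.00674). Sirt3, a deacetylase of mitochondrial enzymes, was at -0.98 and called.

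Of 16 tested PPAR-alpha-responsive genes outside oxidation, 4 were higher and 2 lower at 30 µg/kg, shares near the 18.0% and 19.4% of all genes. Fgf21, a fasting hormone, rose from 3.32 ± 0.984 CPM in vehicle to 24.9 ± 13.9 and 35.7 ± 14.6 CPM at 10 and 30 µg/kg (log2 fold change 3.41 at 30 µg/kg, edgeR adjusted p = 0.00526). Ucp2, a mitochondrial carrier, rose stepwise from 0.3 µg/kg on to 324 ± 23.3 CPM, from 39.8 ± 4.55 CPM in vehicle. Cyp4a14, a fatty acid omega-hydroxylase, fell from 1742 ± 39.5 CPM in vehicle to 119 ± 101 CPM at 1 µg/kg, and was 250.5 ± 154 CPM in the top group. Pdk4, a kinase that spares glucose when fat is burned, was low at 1, 3 and 10 µg/kg (-3.12, -3.52 and -2.56, all called) and overlapped with vehicle at 30 µg/kg, with 69.3, 21.5 and 114 CPM beside 75.4, 28.8 and 102 CPM. Angptl4, an inhibitor of lipoprotein lipase, was at -0.44 and not called.

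**Figure D4:**
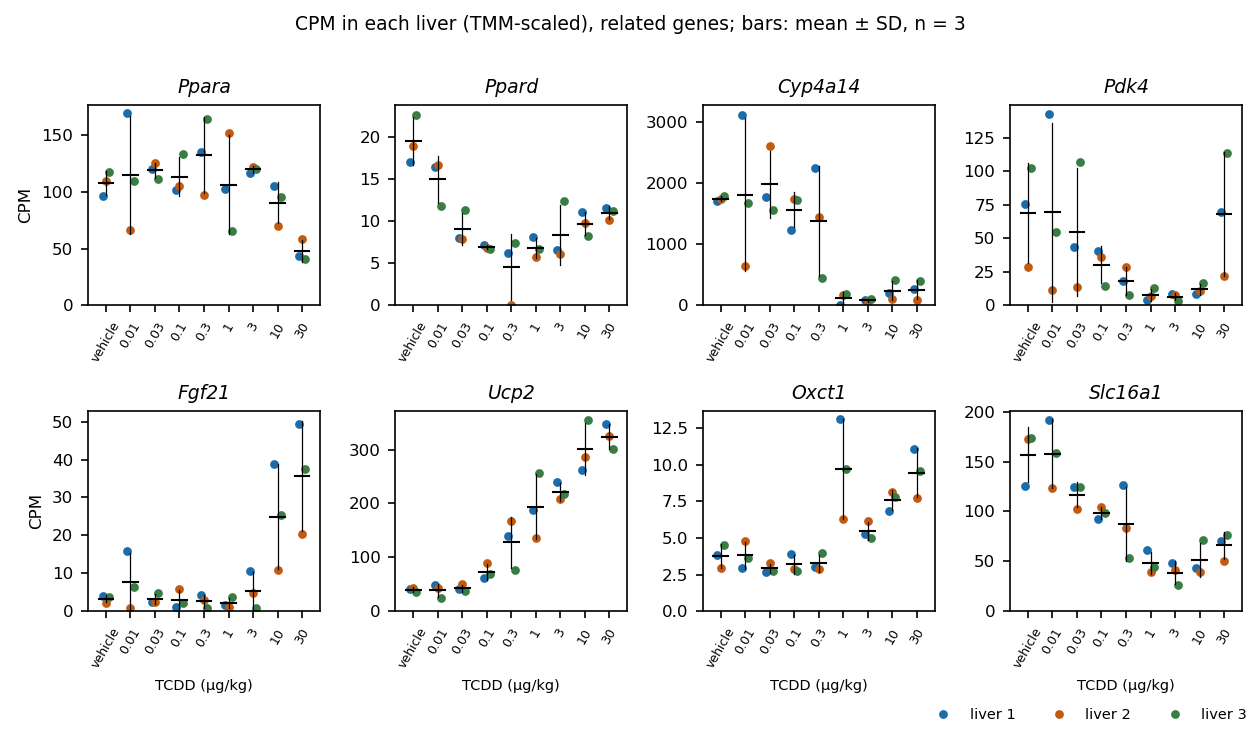
TMM-scaled CPM in each liver (points, coloured by replicate number) for 8 genes related to fatty acid oxidation, by group from vehicle to 30 µg/kg, with means and SD of 3 livers as bars. Ppara has its lowest mean, 47.6 CPM, at 30 µg/kg, Ppard is below every vehicle liver in all 8 TCDD groups, and Pdk4 is low at 1 to 10 µg/kg and back at 68.3 CPM at 30 µg/kg.

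Counts in neighbouring pathways follow. Of 34 tested further genes of fatty acid oxidation and uptake, 18 were lower and 4 higher at 30 µg/kg, with a median log2 fold change of -0.59. Hacl1, the lyase of peroxisomal alpha-oxidation, fell from 756 ± 106 to 174 ± 50.9 CPM (log2 fold change -2.12, edgeR adjusted p = 4.66e-05). Slc25a42, which imports coenzyme A into mitochondria, was at -1.50, and Slc27a5, a very long-chain and bile acid CoA ligase, at -1.45, both called. Of 18 genes of the tricarboxylic acid cycle 9 were lower and none higher, with a median of -0.39. Of 20 genes of peroxisome biogenesis 7 were lower and 1 higher, also with a median of -0.39. The background at this dose was 19.4% of all genes lower.

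Across the start regions, 32 of the 37 genes had an entry in the RefSeq table, with 37 promoters in all. GCGTG on either strand stood in 18 of these 37 promoters (48.6%), beside 32.4% of all promoters. It was in 13 of 20 mitochondrial (65.0%) and 4 of 15 peroxisomal promoters (26.7%). Among genes lower at 30 µg/kg 7 of 14 with an entry held a core, among genes not called 10 of 17, and in Pex11a there was none. A strict form of the DR1 element that PPAR-alpha binds with its partner, AGGNCA repeated with N between the copies and searched on both strands, stood in none of the 37 promoters and in 0.381% of all promoters.

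Levels per kilobase of exon set the members on a common scale. In vehicle livers Acaa2 was highest at 589 CPM per kilobase, followed by Acaa1b at 413, Etfb at 344, Crot at 240.5 and Ehhadh at 229, while Hadhb at 3.98, Acot1 at 8.68 and Acot4 at 9.70 were lowest. Of the 5 highest, 4 were called lower at 30 µg/kg, beside 16 of all 37 members and 19.4% of all genes tested. Without the strand setting of the counting, reads of genes that overlap on the other strand cannot be separated: the share of exonic bases is 42.9% for Acadvl (with Dvl2), 13.7% for Bdh1, 12.3% for Acot8 and 11.4% for Acaa1b.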

How the data were processed

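Per the submitters' processing notes, reads were handled with FastQC 0.11.2, cutadapt 1.4.1, TopHat 1.4.1, SAMtools 0.1.19, HTSeq 0.6.1 and DESeq on the build GRCm38. The deposited values are read counts per gene, whole and unnormalized, with no step after counting in the files. For counting, neither strand setting nor gene annotation was named in these notes. Each file ends in 5 summary lines, left out of library sizes. Reads in no feature came to 5.62 to 11.9% of a library and ambiguous reads to 1.79 to 3.49%.

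Of the 41388 identifiers 40254 received a symbol from GENCODE M21. Counts were fitted over all 27 libraries with edgeR 4.0.16 in R 4.3.3: TMM factors, filterByExpr with a minimum count of 10, a quasi-likelihood test with 1 mean per group, and Benjamini-Hochberg adjustment over 15121 genes. A second fit used the rank of the dose, 0 to 8. Medians by liver used log2(CPM + 0.5). Replicate libraries differed beyond counting noise (chi-square per degree of freedom at least 6.07). DESeq2 1.42.0, other scalings and filters, a replicate block and leaving out each library were the alternatives, and the edgeR steps were tested on simulated data. Promoters are RefSeq's, 300 bases each. Intervals for single libraries were not computed, since every value has 3 livers.

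The genes and lists were chosen with earlier results of these data known. Values in every liver are given for called genes of large change at 30 µg/kg in each organelle, for genes higher there and for textbook steps. Acads, Acaa1a, Acot1, Crat, Eci2, Pparg, Sirt1 and the genes named for level or shared sequence were added after values were seen.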

Additional observations from a re-analysis of the deposited data

How the results depend on the processing

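At 30 µg/kg the count of 17 called genes became 14 to 17 under the other scalings, filters, tools and fits. Counts that moved by over 1.5 times without leaving out a single liver were these: at 0.3 µg/kg 2 with DESeq2, 0 with the 6 libraries alone and 0 without the shallow liver. At 10 µg/kg it was 14 with the 6 libraries alone. For 30 against 10 µg/kg it was 0 with the 6 libraries alone. For 10 against 0.3 µg/kg it was 8 with the 6 libraries alone and 7 without the shallow liver. The mitochondrial median at 30 µg/kg was -0.36 with RLE, upper-quartile and DESeq2 scaling. The peroxisomal median was -0.34 with the dual genes counted as peroxisomal and -0.05 when organelles followed the order of the list. Relative to the median of all genes, the mitochondrial median was -0.46 in the main fit and under RLE, upper-quartile and DESeq2 scaling. Both of these peroxisomal medians were taken over other sets of genes. The cause of the shifts in the counts was not tested. Leaving out each liver in turn gave 0 to 2 called genes at 0.3 µg/kg (0 without any 1 of the vehicle livers), 5 to 10 at 1 µg/kg, 4 to 5 at 3 µg/kg, 4 to 7 at 10 µg/kg and 11 to 17 at 30 µg/kg. It gave 0 to 4 for 30 against 10 µg/kg, 7 to 18 for 10 against 0.3 µg/kg, 13 to 20 for the trend, -0.57 to -0.41 for the mitochondrial and -0.25 to -0.11 for the peroxisomal median. At 30 µg/kg against vehicle the 17 called genes gave 272 values under these alternatives, of which 242 kept the call and 30 lost it. Of 320 values for the 20 genes not called there, 1 gained a call. Calls were also lost in 6 cases at 0.3 µg/kg, 20 at 1 µg/kg, 15 at 3 µg/kg, 37 at 10 µg/kg, 9 for 30 against 10 µg/kg, 60 for 10 against 0.3 µg/kg and 86 in the trend. In the counts at 0.3 µg/kg and for 10 against 0.3 µg/kg, the fit without the shallow liver was entered under 2 names. Etfb was called without the second 30 µg/kg liver, at -0.67 with an edgeR adjusted p of 0.0251. No gene called at 30 µg/kg, and neither organelle median there, changed sign in any of these alternatives. For genes called in neither fit the sign was not compared. The fit without the 1 µg/kg group, chosen after seeing the data, called 17 at 30 µg/kg and 16 in the trend.

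The main fit did not pair livers by replicate number. Against vehicle, same-numbered livers correlated at 0.02 to 0.10 at 30 µg/kg, 0.09 to 0.34 at 10 µg/kg and -0.33 to 0.02 at 3 µg/kg. With the replicate block 10 genes were called at 1 µg/kg, 17 at 30 µg/kg and 18 in the trend. At 30 µg/kg against vehicle every liver correlated best with its own number, a hint from the data and not from the design. The liver of 434011 counts limits what 0.3 µg/kg can show.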
